A study of Ovis aries with 12 samples.

Results

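The genes described here encode the secreted and membrane parts of the Wnt pathway: the Wnt ligands, their Frizzled receptors, the secreted antagonists of the SFRP and DKK families, and the R-spondins. They were taken from the gene table by symbol, and 36 of its 26247 genes carried such a symbol: 18 WNT, 7 FZD, 4 SFRP, 3 DKK and 4 RSPO genes. All 36 passed the count filter (10 counts or more in 3 or more libraries), as did 16799 genes in all. RNA was sequenced in bulk from sheep (Ovis aries) embryos that had been dissociated enzymatically into cells. Embryos of Hulunbuir Short-tail Sheep, the experimental breed, and of Ujumqin sheep, the control breed, were sampled at 16 and at 25 days of age, with 3 libraries in each of the 4 groups. No genotype, allele or treatment other than breed and age is given for any group, and whole embryos were used, so a level is an average over all cell types of the embryo. In such samples, fewer cells of a type and less RNA per cell cannot be told apart.

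Wnt proteins are lipid-modified secreted signals. They bind a Frizzled receptor, together with the co-receptors LRP5 and LRP6 for the beta-catenin branch, or with partners such as ROR2 and RYK for branches that act on cell polarity and movement. SFRP proteins resemble the ligand-binding part of Frizzleds and bind Wnts outside the cell, DKK1 and DKK2 bind the LRP co-receptors, and R-spondins bind LGR receptors and keep Frizzleds at the cell surface. In vertebrate embryos the pathway is known for its work in the primitive streak and tail bud, the neural tube, the limb bud, the heart and the kidney. In mice, loss of Wnt3a function shortens the tail and body axis.

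Total gene counts ranged from 43131962 to 55455815 in the day 16 libraries and from 30464606 to 39643588 in the day 25 libraries, where a floor of 3 counts corresponded to 0.0541 to 0.0985 CPM (counts scaled to the library total). Nothing in the labels ties the 3 libraries of a group to separate animals: the p-values rest on the spread between these libraries alone, which may be technical. Libraries of a group spread more at day 16 than at day 25, and the Wnt genes spread more than most: the median coefficient of variation of CPM (TMM-scaled) over the genes with a value was 53.4% in Ujumqin and 65.2% in Hulunbuir at day 16, against 27.5% and 29.2% over all genes tested. At day 25 it was 24.1% and 11.6%, against 16.6% and 9.41%. Hulunbuir day 16 replicate 2 stood apart from the other 2 libraries of its group, with COL1A1 at 5544 FPKM against 1939 and 1679 and COL3A1 at 5514 against 1205 and 1535. These collagen genes are on the limb and mesenchyme list, of which PRRX1, TWIST1 and TBX5 were the lowest of the group in the same library. Ujumqin day 16 replicate 3 also stood apart, with 61090 summed FPKM over 8 yolk sac and liver markers against 24207 and 25427. Of the embryo markers listed, 8 of 9 tail bud, 5 of 8 neural, 5 of 5 somite and muscle and 3 of 5 heart genes were measured, and none of these was at 0 in all 12 libraries. The tail bud genes MSGN1 and CDX4 were at 0 in all 6 day 25 libraries, and the muscle genes MYOD1 and MYOG were each at 0 in 5 of 6 day 16 libraries. Of the uterine markers, PAEP was at 0 in all 12 libraries, and the 4 measured genes summed to between 1.74 and 12 FPKM. Nearly all of that sum was FOXA2 (1.743 to 11.96 FPKM), with OXTR at most 0.371 and ESR1 at most 0.0526 FPKM in a library. FPKM (fragments per kilobase of a gene, scaled to the library) are the authors' values, while log2 changes, standard errors and adjusted p-values come from edgeR's quasi-likelihood test on the counts with Benjamini-Hochberg adjustment over all genes tested. Rose, fell, higher and lower calls use a threshold of 0.05 on the adjusted p.

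Among the ligands, WNT11 and WNT5A had the highest mean FPKM over the 12 libraries, at 23.4 and 18.4. WNT11, a ligand known for guiding cell movements in gastrulation (chromosome 15, 53761539 to 53778246 in the Oar_v3.1 assembly), was at 70.8, 40.6 and 18.5 FPKM at day 16 in Ujumqin and at 23.6, 55.7 and 11.4 in Hulunbuir. At day 25 it was at 11.1, 9.08 and 10.4 FPKM in Ujumqin and at 9.78, 9.87 and 9.71 in Hulunbuir. Every day 16 library was thus above every day 25 library, and the day 16 libraries of a breed differed among themselves by several fold. Of the summed ligand FPKM at day 16, WNT11 took 55.7%, 36.1% and 30.5% in Ujumqin and 20.3%, 42.0% and 16.4% in Hulunbuir. At day 25 its share lay between 10.8% and 13.8% in all 6 libraries.

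WNT5A, a ligand of the polarity branch needed for outgrowth of the tail, limbs and face in mice (chromosome 19, 45575915 to 45594001), was at 11.4, 6.09 and 13.3 FPKM in Ujumqin and 38.1, 15.2 and 16.5 in Hulunbuir at day 16. At day 25 the values were 17.1, 15.4 and 15.2 in Ujumqin and 25.0, 23.5 and 24.3 in Hulunbuir. The 3 Hulunbuir libraries were above the 3 Ujumqin libraries at each age. WNT2B came next, at 14.2, 21.9 and 9.04 FPKM in Ujumqin day 16 libraries, 6.18, 45.5 and 4.40 in Hulunbuir day 16, 19.0, 15.2 and 16.7 in Ujumqin day 25, and 11, 12.8 and 10.1 in Hulunbuir day 25. Its highest value was in the Hulunbuir day 16 library with the high collagen genes. The 10 ligands with the lowest means (WNT1, WNT3, WNT3A, WNT7B, WNT8A, WNT8B, WNT9A, WNT9B, WNT10A and WNT16) had means over 12 libraries between 0.152 and 1.61 FPKM. The summed ligand FPKM lay between 60.7 and 133 at day 16 and between 80.4 and 90.8 at day 25.

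**Figure D1:**
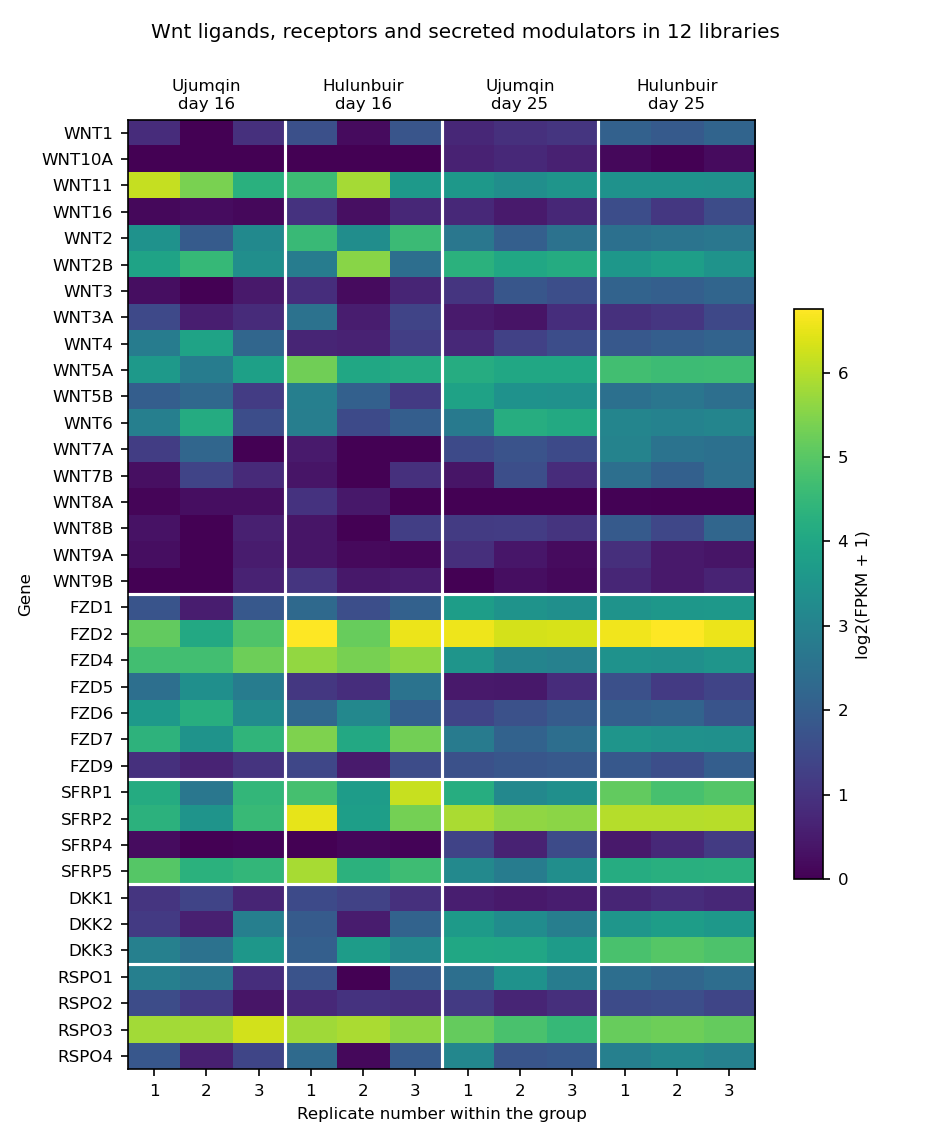
Heat map of log2(FPKM + 1) for the 36 genes (lines, grouped from top to bottom as WNT, FZD, SFRP, DKK and RSPO) in the 12 libraries (columns, 3 per breed and age). FZD2 is bright in each day 25 library, RSPO3 and FZD4 are brighter at day 16 than at day 25, and neighbouring columns differ more at day 16 than at day 25.

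FZD2 and FZD4 led the receptors, with mean FPKM of 71.6 and 23.2. FZD2, a receptor that binds WNT5A and WNT3A in mouse cells (chromosome 11, 43747339 to 43749370), was at 34.1, 15.9 and 28.5 FPKM in Ujumqin and 105, 35.3 and 92.8 in Hulunbuir at day 16, and at 94.0, 79.0 and 79.4 in Ujumqin and 96.0, 107 and 92.7 in Hulunbuir at day 25. The Ujumqin day 16 libraries were the 3 lowest of the 12. FZD4, a receptor known for its part in the growth of retinal blood vessels (chromosome 21, 8036384 to 8045013), was at 25.1, 25.1 and 36.9 FPKM in Ujumqin and 49.3, 40.4 and 47.6 in Hulunbuir at day 16, and at 10.4, 7.18 and 6.81 in Ujumqin and 9.93, 9.47 and 10.5 in Hulunbuir at day 25. All 6 day 16 libraries were above all 6 day 25 libraries.

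The make-up of the receptor pool differed between the ages. FZD2 took 34.7%, 20.1% and 27.4% of the summed FZD FPKM in Ujumqin day 16 libraries and 50.6%, 34.3% and 48.2% in Hulunbuir day 16 libraries. At day 25 it took 73.9%, 75.6% and 74.8% in Ujumqin and 71.5%, 74.3% and 70.9% in Hulunbuir. FZD4 and FZD7 together made up most of the rest at day 16: FZD4 took between 23.8% and 39.3% and FZD7 between 12.7% and 20.5% over the 6 libraries. At day 25 they took between 6.41% and 8.20% and between 3.19% and 7.78%. These shares are a description, with no test, and a share moves whenever another receptor does.

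**Figure D2:**
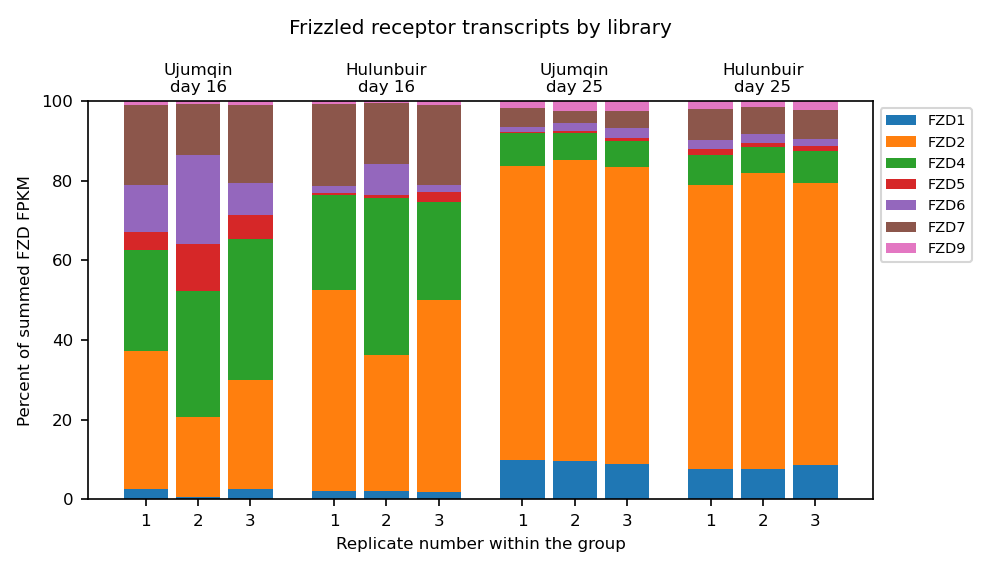
Stacked bars of the percent of summed FZD FPKM that each of 7 Frizzled genes took in each of the 12 libraries (3 replicates per breed and age). FZD2 fills between 20.1% and 50.6% of a day 16 bar and between 70.9% and 75.6% of a day 25 bar.

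SFRP2 and SFRP1 led the SFRP antagonists. SFRP2 (chromosome 17, 3719522 to 3727430) was at 19.4, 10.3 and 22.2 FPKM in Ujumqin and 89.7, 12.7 and 39.7 in Hulunbuir at day 16, and at 58.8, 48.7 and 47.1 in Ujumqin and 63.2, 62.6 and 63.7 in Hulunbuir at day 25. SFRP1 (chromosome 26, 34708544 to 34747853) was at 16.7, 5.36 and 20.9 FPKM in Ujumqin and 26.3, 12.2 and 71.6 in Hulunbuir at day 16, and at 17.5, 7.85 and 9.28 in Ujumqin and 34.2, 26.7 and 29.7 in Hulunbuir at day 25. For both genes the breeds overlapped at day 16 and did not overlap at day 25, where each Hulunbuir library was above each Ujumqin library.

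Of the Dickkopf genes, DKK3, a divergent member that is not known to bind LRP co-receptors (chromosome 15, 40284779 to 40334453), was at 6.61, 4.86 and 10.9 FPKM in Ujumqin and 3.14, 12.2 and 8.12 in Hulunbuir at day 16. At day 25 it was at 15.3, 14.9 and 11.9 FPKM in Ujumqin and 27.0, 30.4 and 28.2 in Hulunbuir. DKK2 was at 1.22, 0.521 and 6.55 FPKM in Ujumqin and 2.82, 0.437 and 3.42 in Hulunbuir at day 16, and at 11.8, 8.67 and 6.38 in Ujumqin and 10.7, 12.6 and 11.1 in Hulunbuir at day 25. DKK3 separated the breeds at day 25 and DKK2 did not.

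RSPO3, needed for vessel growth in the mouse placenta, made up most of the R-spondin FPKM (chromosome 8, 11210668 to 11265163). It was at 55.3, 56.0 and 76.9 FPKM in Ujumqin and 53.7, 58.3 and 47.8 in Hulunbuir at day 16, and at 34.4, 27.3 and 22.0 in Ujumqin and 35.6, 37.6 and 34.8 in Hulunbuir at day 25. RSPO1, known for its part in ovary development in mammals, was at 6.55, 5.28 and 0.844 FPKM in Ujumqin and 2.32, 0 and 2.93 in Hulunbuir at day 16, and at 4.51, 9.81 and 6.09 in Ujumqin and 4.44, 3.67 and 4.31 in Hulunbuir at day 25. The summed R-spondin FPKM lay between 54.5 and 79.7 at day 16 and between 31.6 and 51.0 at day 25, without overlap between the ages.

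Some ligand genes are neighbours on the chromosome. WNT6 and WNT10A lie 7916 bases apart on chromosome 2 with 0 annotated genes between them, WNT3A and WNT9A 77878 bases apart on chromosome 5 with 0 between, and WNT9B and WNT3 66668 bases apart on chromosome 11 with 1 between. Of the 3 pairs, WNT6 and WNT10A were both called lower in Hulunbuir at day 25, as were 19.6% of all genes. Both lost that call when libraries were scaled by total counts, and WNT10A had at most 29 counts in a library. No member of the other pairs was called between breeds at either age.

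The day 16 comparison asked how the short-tailed breed differed from the control breed at the younger age. None of the 36 genes passed the threshold in edgeR's quasi-likelihood test, beside 3 of 16799 genes in all, which is 0.0179%. At an unadjusted p under 0.05 there were 8 of the 36, and 19.0% of all genes. The values of 6 genes did not overlap between the breeds, where 23.5% of all genes did not overlap: WNT5A, WNT16, FZD2 and FZD4 were above in Hulunbuir, and WNT4 and FZD6 below. The fitted log2 changes had a median of 0.43 over the 35 genes with a count (0.01 over all genes), and 22 of them were above 0.

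WNT4, a ligand needed for kidney and ovary formation in mice (chromosome 2, 243590542 to 243601107), had the smallest adjusted p at day 16. It was at 6.15, 14.2 and 3.72 FPKM in Ujumqin and at 0.627, 0.561 and 1.37 in Hulunbuir, a log2 change of -3.36 ± 0.63 (adjusted p = 0.108). For FZD2 the log2 change was 1.45 ± 0.42 (adjusted p = 0.157) and for FZD4 0.58 ± 0.21 (adjusted p = 0.215). FZD6, a receptor of the polarity branch that patterns hair in mice, was at 11.5, 17.9 and 8.61 FPKM in Ujumqin and 3.82, 7.86 and 3.18 in Hulunbuir (log2 difference -1.38 ± 0.50, adjusted p = 0.209). FZD5, a receptor needed in the mouse yolk sac and eye, was at 4.53, 9.19 and 6.10 FPKM in Ujumqin and 1.13, 0.847 and 4.90 in Hulunbuir (log2 difference -1.71 ± 0.63, adjusted p = 0.216). The breeds overlapped in FZD5. For WNT5A the log2 change was 1.11 ± 0.44 (adjusted p = 0.235).

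How many of these genes were called at day 16 depended on how the spread was estimated. Same-numbered libraries of the 2 breeds deviated together weakly at day 16 (r = 0.12, 0.26 and 0.34). The labels state no pairing, and deviations from means of so few libraries depend on each other, so these r cannot show one. With the replicate number as a block 2 of the 36 were called, FZD2 (1.41 ± 0.16, adjusted p = 0.0390) and FZD6 (-1.48 ± 0.21, adjusted p = 0.0479), beside 1.80% of all genes. With a spread shared over all 12 libraries, 5 were called, beside 14.3% of all genes: FZD2, FZD4, WNT5A and WNT16 higher and WNT4 lower. DESeq2 called FZD2 and WNT4, beside 9.96% of all genes, and voom with group weights called FZD2, beside 3.17%. Without Ujumqin replicate 3, WNT4 was called, and without Hulunbuir replicate 2 none was.

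The summed FPKM of the erythroid, the yolk sac and liver, the heart and the surface ectoderm markers did not overlap between the breeds at day 16. The sums of the trophoblast, limb and mesenchyme, neural, tail bud, somite and muscle, and uterine lists overlapped. By edgeR's quasi-likelihood test 0 of 6 erythroid, 0 of 8 yolk sac and liver and 0 of 3 heart markers were called. The erythroid sum ranged from 814 to 3700 in Ujumqin and from 59.9 to 134 in Hulunbuir. The yolk sac and liver sum ranged from 24207 to 61090 in Ujumqin and from 4195 to 13296 in Hulunbuir, and the heart sum from 55.2 to 182 and from 471 to 1069. No measured erythroid, yolk sac and liver or heart marker was at 0 in all 12 libraries. The trophoblast and surface ectoderm lists also had 0 called, of 6 and 3 tested. Of the trophoblast list, KRT8 (log2 change 0.40) and CDX2 (0.44) were above 0, while PAG1 (-1.04), HAND1 (-0.67) and ELF5 (-0.82) were below. PAG1 was listed by symbol alone, for a row on chromosome 9 (57032711 to 57093522). Whether that row is a trophoblast gene was not checked, so its values cannot be read as trophoblast levels. Of the surface ectoderm markers, TFAP2A (-1.37) and GRHL3 (-1.18) were below 0. The following 3 genes of those lists were singled out after their values were seen. PPARG was at 20.5, 75.5 and 9.80 FPKM in Ujumqin and 0.635, 2.99 and 0.456 in Hulunbuir (adjusted p = 0.135). TP63 was at 6.07, 15.5 and 0.805 FPKM in Ujumqin and 0.387, 0.498 and 0.313 in Hulunbuir (adjusted p = 0.135). GCM1, which did not pass the count filter, was at 3.18, 13.9 and 0 FPKM in Ujumqin and 0, 0.114 and 0 in Hulunbuir. In Ujumqin all 3 were highest in replicate 2 and lowest in replicate 3, the order that WNT4 and FZD6 had. WNT2B, WNT5B, WNT6, WNT7A, WNT16 and DKK1 also had this order, and its share over all genes was not counted. FZD5 was also highest in replicate 2. HAND1, CDX2 and TFAP2A of those lists had the order of WNT4 too. PAG1, ELF5 and GRHL3 were instead highest in Ujumqin replicate 3, and KRT8 in replicate 1. The erythroid sum, and the yolk sac and liver sum, were highest in replicate 3. The part of these markers in the day 16 values of WNT4, FZD5, FZD6, FZD2 and WNT5A was not tested.

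**Figure D3:**
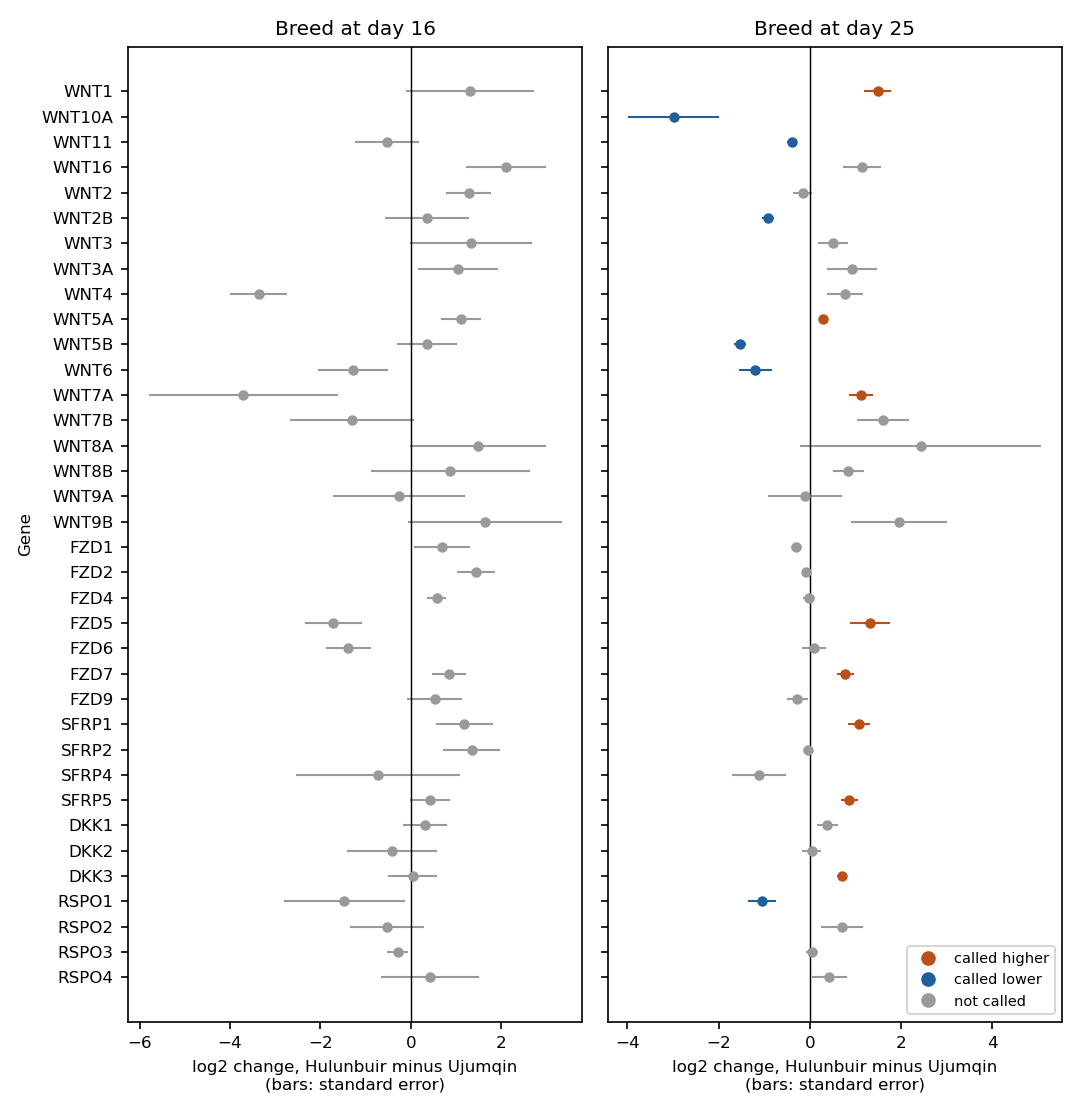
Fitted log2 change, Hulunbuir minus Ujumqin, of the 36 genes at day 16 (left) and day 25 (right), with bars of 1 standard error. Colours mark adjusted p under 0.05 in edgeR's quasi-likelihood test; WNT10A has no point at day 16, where its counts were 0 in all 6 libraries. At day 16 no point is coloured and the bars are long, while at day 25 there are 8 orange points to the right of 0 and 6 blue points to the left.

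At day 25 the same comparison called 14 of the 36 genes, 8 higher and 6 lower in Hulunbuir. Over all genes 40.1% were called, 20.5% higher and 19.6% lower, so the Wnt genes were called at a rate near the background. Of the 18 ligands, 3 were higher (WNT1, WNT5A, WNT7A), 5 lower (WNT2B, WNT5B, WNT6, WNT10A, WNT11) and 10 were not called. FZD5 and FZD7 of 7 receptors, SFRP1 and SFRP5 of 4 SFRP genes and DKK3 of 3 DKK genes were higher, and none of these families had a lower call. RSPO1 of 4 R-spondins was lower. The values of 23 of the 36 did not overlap between the breeds (57.7% of all genes), 19 above and 4 below in Hulunbuir.

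These directions depend on the scale. The fit scaled libraries by TMM, which centres the bulk of genes, whereas FPKM follow the total count. Scaling by total counts moved the median log2 change of all genes from 0.04 to 0.35. On that scale 16 of the 36 were called, 14 higher and 2 lower (WNT2B and WNT5B), beside 6099 higher and 1478 lower of all genes. WNT6, WNT10A, WNT11 and RSPO1 lost their calls there, with adjusted p = 0.0813, 0.0585, 0.707 and 0.0758. WNT16, WNT7B, WNT8B, WNT4, DKK1 and SFRP2 gained calls as higher. SFRP2 turned from -0.03 ± 0.08 (adjusted p = 0.820) to 0.29. The 8 genes called higher kept that direction on every scale.

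WNT5B, a ligand of the polarity branch that acts in cartilage in mice (chromosome 3, 212137441 to 212152515), had the smallest adjusted p of the 36 at day 25. Its FPKM was 13.7, 9.85 and 9.65 in Ujumqin and 4.65, 5.24 and 4.51 in Hulunbuir (log2 difference -1.52 ± 0.13, adjusted p = 7.3e-05). It took 17.0%, 12% and 11.5% of the summed ligand FPKM in Ujumqin and 5.12%, 6.17% and 5.03% in Hulunbuir. WNT2B, at the FPKM given above, had a log2 difference of -0.91 ± 0.13 (adjusted p = 7.7e-04). WNT10A, a ligand of tooth and skin ectoderm (chromosome 2, 219832766 to 219844940), was at 0.555, 0.709 and 0.530 FPKM in Ujumqin, which is 25, 29 and 24 counts. In Hulunbuir it was at 0.0973, 0 and 0.156 FPKM, 6, 0 and 8 counts (log2 change -2.98 ± 1.0, adjusted p = 0.0415). Its neighbour WNT6 was at 5.74, 17.3 and 16.2 FPKM in Ujumqin and 7.42, 6.95 and 7.42 in Hulunbuir (log2 difference -1.19 ± 0.37, adjusted p = 0.0313), with Ujumqin replicate 1 below all Hulunbuir libraries. For WNT11 the change was small, -0.38 ± 0.11 (adjusted p = 0.0261), with overlapping FPKM.

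WNT1, which patterns the midbrain and dorsal neural tube in mice (chromosome 3, 137053186 to 137056187), was higher in Hulunbuir at day 25: 0.692, 0.919 and 1.05 FPKM in Ujumqin against 3.30, 2.74 and 3.51 (log2 change 1.49 ± 0.29, adjusted p = 0.00412). WNT7A, a ligand of dorsal limb ectoderm and of the neural tube in mice, was at 1.85, 2.31 and 1.86 FPKM in Ujumqin and 7.11, 4.89 and 4.58 in Hulunbuir (log2 difference 1.12 ± 0.26, adjusted p = 0.00924). For WNT5A the log2 change was 0.29 ± 0.07 (adjusted p = 0.0108). WNT7B, at 0.299, 2.07 and 0.826 FPKM in Ujumqin and 4.55, 3.21 and 4.56 in Hulunbuir, missed the threshold (log2 change 1.60 ± 0.57, adjusted p = 0.0528), as did WNT16 (1.15 ± 0.42, adjusted p = 0.0568). The tail bud ligand WNT3A was at 0.413, 0.288 and 0.838 FPKM in Ujumqin and 0.896, 1.09 and 1.76 in Hulunbuir (adjusted p = 0.217). The 5 measured neural markers summed to between 380 and 433 FPKM in Ujumqin and between 560 and 565 in Hulunbuir, with none at 0 in all 12 libraries. NES and SOX2 were called higher, and PAX6 (0.25, adjusted p = 0.140), ELAVL3 (0.00, adjusted p = 0.997) and STMN2 (-0.16, adjusted p = 0.175) were not called. Their part in the WNT1 and WNT7A differences was not tested.

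Among receptors and antagonists at day 25, SFRP5, a Wnt inhibitor of foregut and fat tissue (chromosome 22, 18137028 to 18141557), was at 8.09, 6.12 and 9.06 FPKM in Ujumqin and 17.0, 18.0 and 18.5 in Hulunbuir (log2 difference 0.87 ± 0.18, adjusted p = 0.00449). SFRP1, with the FPKM given above, was higher by 1.08 ± 0.25 on the log2 scale (adjusted p = 0.00862), and DKK3 by 0.70 ± 0.11 (adjusted p = 0.00160). FZD7, a receptor of the beta-catenin branch in stem cells (chromosome 2, 203261392 to 203263193), was at 6.03, 3.34 and 4.39 FPKM in Ujumqin and 10.4, 9.62 and 9.38 in Hulunbuir (log2 difference 0.78 ± 0.19, adjusted p = 0.00991). FZD5 was at 0.365, 0.359 and 0.795 FPKM in Ujumqin and 2.13, 1.21 and 1.59 in Hulunbuir (log2 difference 1.33 ± 0.44, adjusted p = 0.0405). RSPO1 had a log2 change of -1.05 ± 0.30 (adjusted p = 0.0229). Summed over each family, SFRP FPKM was 86.0, 63.2 and 67.3 in Ujumqin and 115, 108 and 113 in Hulunbuir, and DKK FPKM was 27.6, 23.9 and 18.7 against 38.3, 43.8 and 40.0.

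WNT1, WNT2B, WNT5B, FZD7, SFRP1, SFRP5 and DKK3 kept their day 25 calls in 14 of 15 settings and lost them only where the spread was shared over all 12 libraries, which called none of the 36. Without Hulunbuir replicate 1 those 7 genes were the ones called. FZD5, with adjusted p up to 0.167, lost its call without each library in turn except Ujumqin replicate 3, and WNT10A lost it whichever library was left out (adjusted p 0.0505 to 0.101). WNT6, RSPO1 and WNT11 lost theirs without each Hulunbuir library in turn, WNT6 and RSPO1 also without Ujumqin replicate 2 and WNT6 and WNT11 without Ujumqin replicate 3. WNT7A (adjusted p = 0.0544) and WNT5A (adjusted p = 0.0533) lost theirs without Hulunbuir replicate 1. With voom and group weights, WNT5A, WNT6, WNT7A, WNT11, RSPO1 and FZD5 lost their calls as well (adjusted p 0.0569 to 0.411).

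Blood and liver markers differed between the breeds at day 25 in the direction opposite to day 16. The 6 erythroid markers summed to 1793 to 2302 FPKM in Ujumqin and 15259 to 18089 in Hulunbuir, and the 8 yolk sac and liver markers to 4894 to 7370 and 18905 to 20435. All 6 erythroid and 7 of the 8 yolk sac and liver markers were called higher. Of 6 limb and mesenchyme markers, 3 were lower: COL1A1 (-1.94 ± 0.22), COL3A1 (-1.91 ± 0.17) and TWIST1 (-0.92 ± 0.11), with adjusted p = 2.6e-04, 9.7e-05 and 3.2e-04. PRRX1 (-0.05), TBX5 (0.00) and TBX4 (-0.70, adjusted p = 0.0804) were not called. The sum of that list, from 5247 to 9835 FPKM in Ujumqin and from 2304 to 2359 in Hulunbuir, is mostly the 2 collagen genes. None of these markers was at 0 in all 12 libraries. Their part in the lower WNT2B, WNT5B, WNT6, WNT11 and RSPO1 and in the higher genes was not tested.

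The comparison of ages asked what changed between day 16 and day 25 within a breed. In Ujumqin embryos 21 of the 36 genes were called, 11 higher and 10 lower at day 25, beside 53.3% of all genes (25.1% higher and 28.2% lower). All 7 Frizzled genes were called: FZD1, FZD2 and FZD9 rose, and FZD4, FZD5, FZD6 and FZD7 fell. Of the ligands 5 rose (WNT3, WNT5A, WNT5B, WNT10A and WNT16) and 3 fell (WNT4, WNT8A and WNT11). SFRP2, SFRP4 and DKK3 rose, and SFRP5, DKK1 and RSPO3 fell. The median log2 change of the 36 was 0.56 with genes at 0 set at their bounds, and -0.06 over all genes. Their values did not overlap between the ages for 22 genes, beside 63.8% of all genes.

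FZD5 had the largest called fall among the receptors in Ujumqin, from 4.53, 9.19 and 6.10 FPKM to 0.365, 0.359 and 0.795 (log2 change -3.57 ± 0.49, adjusted p = 0.00128). FZD1 rose from 2.39, 0.462 and 2.60 FPKM to 12.5, 10.01 and 9.25 (log2 change 2.66 ± 0.57, adjusted p = 0.00750). FZD6 fell from the values given above to 1.61, 2.16 and 2.85 FPKM (log2 change -2.42 ± 0.38, adjusted p = 0.00205). FZD2 rose by 1.79 ± 0.27 (adjusted p = 0.00168) and FZD4 had a log2 change of -1.74 ± 0.21 (adjusted p = 7.6e-04). RSPO3 had one of -1.07 ± 0.19 (adjusted p = 0.00380), WNT11 of -2.0 ± 0.46 (adjusted p = 0.00978) and WNT5B of 2.08 ± 0.41 (adjusted p = 0.00532).

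WNT10A had 0 counts in all 3 Ujumqin day 16 libraries and a mean of 0.813 CPM at day 25, which is at least 14.1-fold higher than the floor of 3 counts per library (adjusted p = 0.00477). WNT8A, a ligand of the posterior embryo at gastrulation in mice (chromosome 5, 46910528 to 46915217), had 4, 12 and 12 counts in Ujumqin day 16 libraries and 0 in each day 25 library, at least 1.9-fold lower (adjusted p = 0.0438). SFRP4 was at 0.172, 0 and 0.0422 FPKM at day 16 and 1.58, 0.556 and 1.92 at day 25 in Ujumqin (log2 change 4.23 ± 1.21, adjusted p = 0.0225). DKK1, an LRP antagonist needed for head formation in mice (chromosome 22, 6660975 to 6667735), was at 1.06, 1.63 and 0.612 FPKM at day 16 and 0.492, 0.377 and 0.443 at day 25 (log2 change -1.25 ± 0.43, adjusted p = 0.0427). Of the 21 calls, 13 held in every setting: the 7 receptors, WNT5B, WNT10A, WNT11, SFRP2, SFRP5 and RSPO3. The others were lost in at least 1 setting, WNT8A with adjusted p up to 0.180, and without Ujumqin day 25 replicate 1 only those 13 were called.

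In Hulunbuir embryos 14 of the 36 were called between the ages, 8 higher and 6 lower at day 25, beside 34.6% of all genes (16.8% higher and 17.8% lower). FZD1 rose and FZD4 and FZD7 fell, while the other 4 receptors were not called. WNT3, WNT4, WNT7A and WNT7B rose, and WNT2 and WNT11 fell. SFRP4, DKK2 and DKK3 rose, and DKK1 and RSPO3 fell. The median log2 change of the 36 was 0.55, and 0.00 over all genes. The values of 23 genes did not overlap, beside 52.6% of all genes.

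FZD4 had the smallest adjusted p (log2 change -2.33 ± 0.14, adjusted p = 1.7e-04). FZD7 went from 42.4, 15.9 and 38.8 FPKM to 10.4, 9.62 and 9.38 in Hulunbuir (log2 difference -1.83 ± 0.31, adjusted p = 0.00492) and from 19.7, 10.03 and 20.3 to 6.03, 3.34 and 4.39 in Ujumqin (-1.76 ± 0.32, adjusted p = 0.00362). WNT2, a ligand of lung and placenta in mice (chromosome 4, 51022634 to 51067683), was at 22.7, 8.97 and 23.4 FPKM at day 16 and 4.67, 5.01 and 5.38 at day 25 (log2 change -1.97 ± 0.32, adjusted p = 0.00415). WNT7A went from 0.390, 0 and 0 FPKM, 18, 0 and 0 counts, to 7.11, 4.89 and 4.58 (log2 change 5.11 ± 1.22, adjusted p = 0.0175). WNT7B went from 0.300, 0 and 0.902 FPKM to 4.55, 3.21 and 4.56 (log2 change 3.29 ± 1.01, adjusted p = 0.0409). For DKK2 the log2 change was 2.28 ± 0.59 (adjusted p = 0.0233), for RSPO3 -0.72 ± 0.19 (adjusted p = 0.0230), for SFRP4 3.86 ± 1.14 (adjusted p = 0.0361) and for FZD1 1.66 ± 0.24 (adjusted p = 0.00299). FZD1, FZD4, FZD7 and WNT2 kept their calls in every setting. Leaving out 1 Hulunbuir day 25 library left those 4, or those and WNT3, as the called genes, and without Hulunbuir day 16 replicate 2 there were 14 calls.

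In both breeds 10 of the 36 genes were called between the ages, where 25.6% of all genes were. The direction was the same for 9 of them, 90.0%, against 96.6% of all genes called in both breeds: WNT3, FZD1, SFRP4 and DKK3 rose, and WNT11, FZD4, FZD7, DKK1 and RSPO3 fell. WNT4 went in opposite directions, falling in Ujumqin from 6.15, 14.2 and 3.72 to 0.725, 1.48 and 1.99 FPKM (log2 change -2.41 ± 0.64, adjusted p = 0.0174). In Hulunbuir it rose from 0.627, 0.561 and 1.37 to 2.64, 3.01 and 3.46 FPKM (1.73 ± 0.42, adjusted p = 0.0182). The Ujumqin call was lost without day 25 replicate 1 or 2 (adjusted p = 0.0549 and 0.0589). The Hulunbuir call was lost whichever day 25 library was left out (adjusted p = 0.0575, 0.0711 and 0.0822) and with voom (0.156).

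**Figure D4:**
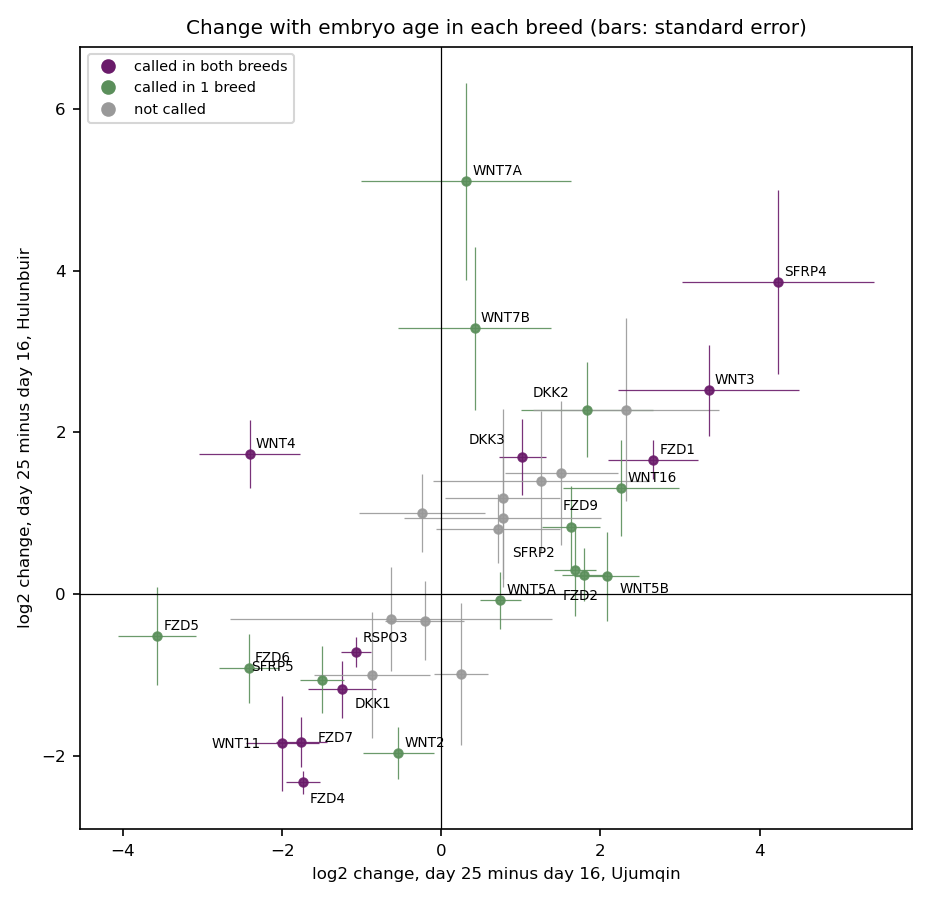
Log2 change from day 16 to day 25 in Ujumqin (x axis) against that in Hulunbuir (y axis) for the 34 of the 36 genes that had a count in each group, with bars of 1 standard error; WNT8A and WNT10A are left out. Purple points were called in both breeds, green points in 1 breed and grey points in neither, and WNT4 is the purple point to the left of 0 and above it.

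Tissue markers also moved with age, in part differently in the breeds. Of 6 erythroid markers, 4 fell in Ujumqin (median log2 change of the list -1.61) and 6 rose in Hulunbuir (median 5.37). Of 8 yolk sac and liver markers, 7 fell in Ujumqin and 3 rose in Hulunbuir. Their summed FPKM at each age are those given with the breed comparisons. Of 6 genes of the trophoblast list tested, PAG1 among them, 4 fell in Ujumqin and 3 in Hulunbuir. PPARG fell in Ujumqin (log2 change -5.07 ± 0.83, adjusted p = 0.00245) and was not called in Hulunbuir (0.18 ± 0.78, adjusted p = 0.877). The sum of the 7 measured trophoblast markers, between 1387 and 4417 FPKM over the day 16 libraries and between 261 and 443 over the day 25 libraries, is mostly KRT8. TP63 fell in Ujumqin (-3.13 ± 1.03, adjusted p = 0.0376) and rose in Hulunbuir (1.42 ± 0.45, adjusted p = 0.0448). All 5 neural markers rose in Ujumqin and 2 in Hulunbuir, with sums between 35.7 and 335 FPKM at day 16 and between 380 and 565 at day 25. The 8 measured tail bud markers summed to between 9.37 and 64.4 FPKM at day 16 and between 2.55 and 5.92 at day 25. CDX2, which is also on the trophoblast list, was the largest of them at day 16 except in Hulunbuir replicate 3. At day 25 TBX6 was the largest in each library. None of the measured markers of these lists was at 0 in all 12 libraries. Their part in the age changes of the Wnt genes was not tested.

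Because an interaction needs all 4 groups, they shared 1 estimate of the spread, although day 16 libraries spread more than day 25 libraries. Whether the breed difference itself changed with age was tested as an interaction over the 12 libraries. It was called for 3 of the 36 genes, beside 16.0% of all genes (7.66% above and 8.30% below 0): WNT4 (4.10 ± 0.79, adjusted p = 0.00717), FZD5 (3.01 ± 0.83, adjusted p = 0.0317) and FZD2 (-1.58 ± 0.45, adjusted p = 0.0343), each as the log2 breed difference at day 25 minus that at day 16. WNT4 and FZD5 had a lower mean in Hulunbuir than in Ujumqin at day 16 and a higher one at day 25, 8.01 ± 5.47 and 0.854 ± 0.452 then 1.40 ± 0.638 and 3.04 ± 0.409 FPKM for WNT4 (mean ± SD, n = 3). For FZD5 the means were 6.61 ± 2.37 and 2.29 ± 2.26 at day 16, then 0.506 ± 0.250 and 1.64 ± 0.464 at day 25. FZD2 was at 26.2 ± 9.32 and 77.5 ± 37.1 FPKM at day 16 and at 84.1 ± 8.54 and 98.4 ± 7.23 at day 25. WNT4 kept its call in all 20 settings, FZD5 in 13 (adjusted p up to 0.0786) and FZD2 in 10 (adjusted p up to 0.0855, on total counts). Voom with group weights, which lets the spread differ between groups, called the same 3 genes, beside 13.8% of all genes. On total counts FZD6 was called in place of FZD2, so that all 3 calls were above 0, beside 1888 above and 677 below 0 of all genes, against 1287 and 1395 with TMM. Without each Hulunbuir day 25 library, and without Ujumqin day 16 replicate 2 or Ujumqin day 25 replicate 1 or 2, WNT4 alone was called. Without Hulunbuir day 16 replicate 2, 5 genes were called.

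Tissue markers were called for the interaction as well. It was called above 0 for all 6 erythroid markers (median 6.89) and for 7 of 8 yolk sac and liver markers (median 4.02). Of 6 genes of the trophoblast list tested, PAG1 among them (median 0.18), PPARG alone was called (5.19 ± 1.21, adjusted p = 0.0164). Of 3 surface ectoderm markers (median 0.65), TP63 alone was called (4.50 ± 1.19, adjusted p = 0.0272). These calls had the sign that WNT4 and FZD5 had. The interaction was called below 0 for STMN2 of the 5 neural markers, for TWIST1 and COL1A1 of the 6 limb and mesenchyme markers and for ACTC1 of the 3 heart markers, the sign that FZD2 had. Their part in the interaction of the Wnt genes was not tested.

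**Figure D5:**
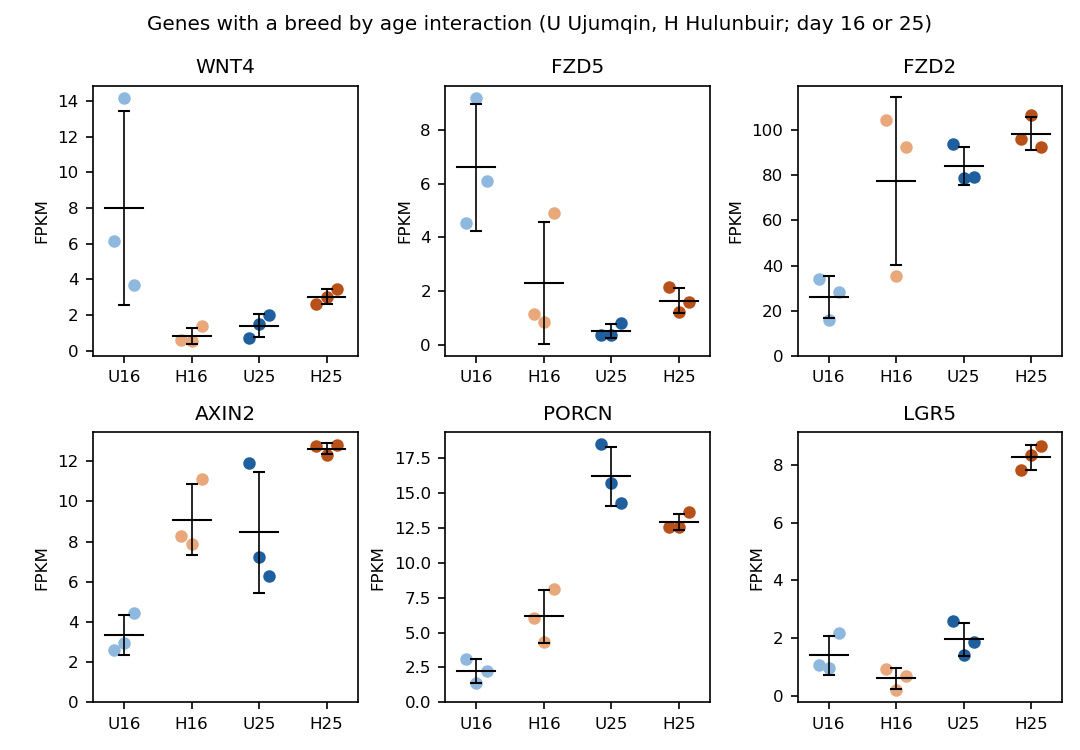
FPKM of WNT4, FZD5, FZD2, AXIN2, PORCN and LGR5, all called for the interaction, in the 3 libraries of each breed and age (points), with the mean and 1 SD (lines and bars). WNT4 and FZD5 are highest in Ujumqin at day 16, FZD2 is lowest there, and LGR5 is highest in Hulunbuir at day 25.

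The rest of the pathway was described from lists of co-receptors and secretion factors, intracellular genes, feedback and target genes, other secreted modulators and planar polarity genes, of which 9, 13, 12, 11 and 9 were tested. At day 16, 0 genes of these lists were called between breeds in edgeR's quasi-likelihood test. AXIN2, a feedback inhibitor induced by beta-catenin signalling (chromosome 11, 61113949 to 61139492), was at 2.61, 2.98 and 4.47 FPKM in Ujumqin and 8.28, 7.90 and 11.1 in Hulunbuir (log2 difference 1.35 ± 0.26, adjusted p = 0.108). LEF1, a transcription factor that partners beta-catenin, was at 6.73, 2.95 and 6.66 FPKM in Ujumqin and 18.1, 10.3 and 20.2 in Hulunbuir (1.47 ± 0.37, adjusted p = 0.145). Neither gene overlapped between the breeds, beside 23.5% of all genes. Both were called with the spread shared over 12 libraries (adjusted p = 0.00615 and 0.0102), beside 14.3% of all genes. DESeq2 also called both, beside 9.96% of all genes. TBXT, the Brachyury gene of the primitive streak and tail bud, was at 3.37, 1.28 and 1.15 FPKM in Ujumqin and 8.78, 2.32 and 4.51 in Hulunbuir (1.31 ± 0.62, adjusted p = 0.304).

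At day 25 the calls of those lists went both ways, beside 20.5% of all genes higher and 19.6% lower. Of 9 co-receptor and secretion genes 3 were higher in Hulunbuir and 1 lower, of 13 intracellular genes 2 and 1, of 12 feedback genes 2 and 2, of 11 other modulators 2 and 2, and of 9 planar polarity genes 4 and 2. Of the 8 lower calls (PORCN, DVL2, NKD1, APCDD1, FRZB, SOSTDC1, VANGL1 and DAAM1), NKD1 alone held on total counts. On that scale the higher calls of the 5 lists were 4, 8, 2, 2 and 5, beside 6099 higher and 1478 lower of all 16799 genes. LGR5, an R-spondin receptor of stem cells (chromosome 3, 107399223 to 107529398), was at 2.58, 1.42 and 1.86 FPKM in Ujumqin and 7.81, 8.35 and 8.66 in Hulunbuir (log2 difference 1.76 ± 0.19, adjusted p = 1.9e-04). CELSR2, a cadherin of the planar polarity pathway, was at 0.990, 0.768 and 1.12 FPKM in Ujumqin and 3.77, 2.93 and 3.40 in Hulunbuir (1.48 ± 0.16, adjusted p = 2.1e-04). APC2, a relative of the beta-catenin scaffold APC that is found in neurons, was at 2.02, 1.68 and 1.29 against 5.08, 4.54 and 4.44 FPKM (1.18 ± 0.15, adjusted p = 4.5e-04). PORCN, the enzyme that attaches the lipid to Wnt proteins (chromosome X, 53250285 to 53260272), was lower in Hulunbuir, at 18.5, 15.7 and 14.3 against 12.5, 12.6 and 13.6 FPKM (-0.64 ± 0.11, adjusted p = 0.00169), and lost its call on total counts (adjusted p = 0.0528). AXIN2 (0.27 ± 0.19, adjusted p = 0.291), LEF1 (0.25 ± 0.14, adjusted p = 0.197) and TBXT (0.13 ± 0.94, adjusted p = 0.925) were not called at day 25.

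With age in Ujumqin, where 25.1% of all genes rose and 28.2% fell, 2 of the 9 co-receptor and secretion genes rose and 3 fell, 2 and 4 of the 13 intracellular genes, 3 and 5 of the 12 feedback genes, 3 and 1 of the 11 other modulators and 0 and 2 of the 9 planar polarity genes. LGR4, an R-spondin receptor, went from 40.7, 44.2 and 46.1 to 6.04, 5.88 and 4.40 FPKM (log2 change -2.91 ± 0.17, adjusted p = 1.7e-04), and VANGL1, a planar polarity membrane protein, from 12.5, 13.9 and 16.0 to 3.45, 2.43 and 3.1 (-2.14 ± 0.20, adjusted p = 3.6e-04). PORCN rose from 3.14, 1.42 and 2.28 to 18.5, 15.7 and 14.3 FPKM (2.92 ± 0.31, adjusted p = 4.9e-04). AXIN2 rose by 1.43 ± 0.29 (adjusted p = 0.00588) and LEF1 by 1.76 ± 0.32 (adjusted p = 0.00397), while TBXT had a log2 change of -3.24 ± 0.81 (adjusted p = 0.0135) and lost its call without day 16 replicate 1 or day 25 replicate 2.

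In Hulunbuir, where 16.8% of all genes rose and 17.8% fell, 2 of the 9 co-receptor and secretion genes rose with age and 6 fell, 0 and 3 of the 13 intracellular genes, 0 and 3 of the 12 feedback genes, 3 and 1 of the 11 other modulators and 0 and 3 of the 9 planar polarity genes. CELSR1, a planar polarity cadherin, went from 9.40, 6.43 and 10.3 to 2.20, 1.89 and 1.87 FPKM (log2 change -2.26 ± 0.17, adjusted p = 2.6e-04). LGR5 rose from 0.945, 0.198 and 0.672 to 7.81, 8.35 and 8.66 FPKM (3.65 ± 0.47, adjusted p = 0.00187). The co-receptor LRP6 went from 6.97, 6.27 and 11.9 to 3.34, 3.00 and 3.26 FPKM (-1.49 ± 0.20, adjusted p = 0.00190). TBXT had a log2 change of -4.42 ± 0.62 (adjusted p = 0.00243), and AXIN2 (0.35 ± 0.14, adjusted p = 0.0893) and LEF1 (0.55 ± 0.22, adjusted p = 0.0950) were not called.

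The interaction was called for PORCN (-2.01 ± 0.36, adjusted p = 0.00535), for DVL2, which passes the signal on from Frizzleds (-1.01 ± 0.19, adjusted p = 0.00627), and for LGR5 (3.03 ± 0.62, adjusted p = 0.00963). AXIN2 (-1.13 ± 0.32, adjusted p = 0.0347) was also called, but lost its call in 13 settings, and LEF1 (-1.25 ± 0.40, adjusted p = 0.0549) was not. For PORCN the Hulunbuir FPKM were all above the Ujumqin FPKM at day 16, where it was not called (adjusted p = 0.157), and all below at day 25. For AXIN2 they were all above at both ages, with means of 8.46 FPKM in Ujumqin and 12.6 in Hulunbuir at day 25, and it was called at neither age.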

How the data were processed

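Bulk RNA-seq of 12 sheep embryo libraries was analysed, 3 for each breed and age. TRIzol extraction of total RNA and Illumina libraries were used, per the labels' protocols. Per the submitters' processing notes, cutadapt 1.9, FastQC and the Oar_v3.1 genome were used. The aligner, counter and strand setting were not given in the sources used here. The deposited table holds, per the file headers, a whole-number count per gene and library, not scaled. It also holds FPKM, which the authors computed from those counts: over 8029 genes the count to FPKM ratio, scaled per library, ranged by a median of 0.0803%. A count of 0 has an FPKM of 0.0001, printed here as 0. Every sample column was matched by name, with 0 left over.

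Genes with at least 10 counts in at least 3 libraries were tested with edgeR 4.0.16 in R 4.3.3 (TMM scaling, quasi-likelihood negative binomial fit, two-sided, Benjamini-Hochberg adjustment over 16799 genes, threshold 0.05). Breeds were compared over the 6 libraries of an age, ages over the 6 libraries of a breed, and the interaction over all 12. Standard errors were taken as the absolute log2 change over the square root of F. Alternatives were RLE and total-count scaling, DESeq2 1.42.0, limma 3.58.1 voom with group weights, an FPKM filter (at least 1 in 3 libraries), no filter, a spread shared over 12 libraries, the replicate number as a block, and leaving out each library. Figures used matplotlib 3.10.9.

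The 36 genes, the pathway and marker lists and the tests were chosen with earlier results of these data known. Of the listed pathway and marker genes, those with no symbol in the table are not analysed here. Values in every library were given for the members with the highest mean FPKM of each family (2 each), those with the largest called change per family and comparison, and pathway genes with the smallest adjusted p (3 per comparison) beside AXIN2, LEF1 and TBXT; others, such as WNT1, WNT2B, FZD6 and SFRP5, were added after their values were seen. Within groups, Pearson r of log2 values was 0.916 to 0.992 and the chi-square of counts was 16.1 to 580 times its degrees of freedom, so no pair was treated as a repeated deposit of one library. Same-numbered libraries of the breeds deviated together weakly at day 16 (r = 0.12, 0.26 and 0.34, each highest with its own number). The labels state no pairing, and these r depend on each other, so they cannot show one. At day 25 and between ages no such pattern was seen (r between -0.03 and 0.07).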

Additional observations from a re-analysis of the deposited data

Results flagged for a closer look

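The breed difference changed between the ages for 3 of the 36 genes, beside 16.0% of all genes, by the interaction test of edgeR's quasi-likelihood fit. WNT4 was below in Hulunbuir at day 16 without overlap of the libraries and above at day 25 without overlap. Over all genes, 23.5% did not overlap at day 16 and 57.7% at day 25. By edgeR's quasi-likelihood test at each age, WNT4 was called at neither (adjusted p = 0.108 at day 16, 0.77 ± 0.40 with adjusted p = 0.154 at day 25). The change in its log2 breed difference was 4.10 (adjusted p = 0.00717). For FZD5 the change was 3.01 (adjusted p = 0.0317), from a lower mean with overlap at day 16 to higher without overlap at day 25. For FZD2 it was -1.58 (adjusted p = 0.0343): Hulunbuir was above without overlap at day 16, and the breeds overlapped at day 25. The interaction call was kept in all 20 settings for WNT4, in 13 for FZD5 and in 10 for FZD2.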

How the results depend on the processing

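At day 16, 0 of the 36 genes were called, against 2 with DESeq2, 5 with the spread shared over 12 libraries, 1 with voom and 2 with the replicate block; over all genes 3 became 1674, 2394, 532 and 302. The spread shared over 12 libraries called 0 of the 36 and 2296 of all genes at day 25. DESeq2 called 5 of the 36 for the interaction. Leaving out 1 library gave 0 to 1 of the 36 and 0 to 290 of all genes at day 16, and 7 to 14 and 4877 to 8236 at day 25. It gave 13 to 20 and 6628 to 9469 for age in Ujumqin, 4 to 16 and 2813 to 6830 for age in Hulunbuir, and 1 to 5 and 1400 to 3258 for the interaction. Among values called in one of the settings compared, signs turned for SFRP2 at day 25 on total counts (0.29). With age in Hulunbuir they turned for WNT5A without day 16 replicate 1 (0.48, range -0.35 to 0.48 over the libraries left out) and for WNT2B without day 16 replicate 2 (1.02, range -1.51 to 1.02). Signs of changes that were not called turned for other genes too. The cause of these shifts was not tested. In the other comparisons the block gave 12 of the 36 at day 25, 17 and 11 with age in Ujumqin and Hulunbuir, and the same 3 for the interaction. RLE scaling and both filter choices kept each count of calls within 1.5 times. Ligands of few counts (WNT8A, WNT9A, WNT9B, WNT10A) limit what can be detected.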
